A study of Anopheles gambiae with 16 samples.

Results

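The mosquito array studied here names each Anopheles gambiae probe set by a chromosome arm, a cluster number and an index within that cluster. This account is about the clusters that carry 4 or more different indexes, and about whether the indexes of 1 cluster tell the same story across tissues. Of 13041 clusters with an arm, 12 met that rule, with 68 indexes and 76 probe sets among the 16884 mosquito probe sets of the array. Clusters 2R.6 and 3R.145 had 10 indexes each, 2R.8 and 2R.19 had 8 each, and 2L.449, 2R.71, 2R.304, 2R.433, 2R.463, 3R.160, 3R.162 and 3R.347 had 4 each. The rule used only the IDs, not the values. The files do not pair these IDs with genes, and 0 of the 76 IDs matched the 15165 genes of the species table (assembly idAnoGambNW_F1_1), so clusters are described by ID and index alone.

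RNA of all 16 arrays, 4 for each group, came from naive adult females of the G3 strain that had eclosed 1 to 2 days before. For hemocytes, heads and 1 set of carcasses 80 ng of RNA went through 2 amplification rounds before hybridisation, and for the second set of carcasses 1000 ng went through 1 round. A carcass pool came from 20 females and a head pool from 40, while the hemocyte labels give 1000 females in one place and 500 in another that also calls the females infected. Heads and carcasses were extracted with Trizol before the column step and hemocytes with the column kit only, so that tissue and extraction cannot be told apart for hemocytes. Labels call the 4 arrays of a group biological replicates. The source name of head replicate 4 mentions carcasses, against its title and tissue entry, and 20 females, against 40 in its collection note. The array was kept as a head. In pooled tissue, fewer cells of a type and less RNA per cell cannot be told apart. No tissue marker could be checked, because no ID pairs with a gene.

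Hemocytes are the circulating blood cells of insects and carry out phagocytosis and melanisation, whereas the carcass holds fat body, flight muscle and cuticle and the head holds brain and sense organs. One gene can give several transcripts through alternative splicing or alternative ends, and arrays of this kind hold a probe set for each predicted transcript end. By the array maker's usage the ending a_at marks probes shared by transcripts of one gene, s_at marks probes shared by transcripts of different genes and x_at marks probes that may also bind unrelated transcripts, while a plain at marks probes held to be unique. Labelling starts from the poly(A) tail, and a second round of amplification shortens the copied RNA, which bears on how far from the end a probe can still be read.

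The 12 clusters were unlike the array as a whole in the kind of probe sets they held. Of their 76 probe sets, 27 (35.5%) carried the mark UTR, against 4.68% of all mosquito probe sets, 44 carried the mark CDS and 5 carried neither. Endings s_at or x_at were found on 28 (36.8%), against 8.21% of all. Members also held 21 of the array's 74 UTR probe sets that end in s_at. A background for each array was set at the 95th percentile of the 4502 parasite probe sets, which mosquito RNA should not light up, and it lay between 8.83 and 15.28 intensity units. Over the 16 arrays 64 of the 76 members (84.2%) had a mean log2 value above the mean log2 background, against 63.95% of all mosquito probe sets. The 10 members of 3R.145 were among those that did not.

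Differences are given on the log2(intensity + 16) scale, which understates the change of dim probe sets. To be called, a probe set needed a limma adjusted p under 0.05 together with a 2-fold or larger difference. Between hemocytes and 2-round carcasses 3 of the 76 members rose, where 10.7% of all mosquito probe sets did, and 23 fell, where 8.17% of all did. Between hemocytes and heads 4 members rose, with 11.1% over all, and 25 fell, with 9.30% over all. Heads over 2-round carcasses gave 0 rises, with 5.02% over all, and 4 falls, with 4.67% over all. Carcasses labelled after 2 rounds over those labelled after 1 round gave 12 rises, with 7.29% over all, and 6 falls, with 2.61% over all. The median member difference was 0.04, -0.12, 0.14 and 0.48 in these 4 comparisons, beside 0.06, 0.00, 0.05 and 0.12 over all mosquito probe sets. Clusters 2R.6, 2R.8 and 2R.19 supplied 30 of the 76 members, and most rows of each move together, so these counts are not counts of independent genes.

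Agreement within a cluster was read from the range of its indexes, meaning the highest minus the lowest index difference. A cluster was called diverging when limma's F test of unequal index differences (diffSplice) had an adjusted p under 0.05 and the range reached 1 log2 unit. Hemocytes over 2-round carcasses gave 6 diverging clusters of 12, where 18.5% of the 958 clusters with at least 2 indexes diverged. Hemocytes over heads also gave 6 of 12, with 21.4% over all, and heads over 2-round carcasses gave 1 of 12, with 8.87% over all. Between the labellings 7 of 12 diverged, with 25.8% over all. A range over more indexes is wider by construction, and clusters of 3 indexes diverged in 28.6%, 38.1%, 19.05% and 46.4% of cases in the same order of comparisons. The median range was 1.36, 1.49, 0.63 and 1.52 in the 12 clusters, 0.69, 0.79, 0.61 and 1.01 in the 84 clusters of 3 indexes and 0.43, 0.42, 0.32 and 0.54 in the 862 clusters of 2.

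The 12 clusters differed by their number of indexes, a split looked at after the values were seen. All 8 clusters with exactly 4 indexes diverged in at least 1 of the 3 tissue comparisons, with ranges from 0.40 to 6.33 over those comparisons. None of the 4 clusters with 8 or 10 indexes did (0 of 4), with ranges from 0.07 to 1.02. Between the labellings 1 of these 4 diverged, 2R.6, and 6 of the 8 did. The share of all 958 clusters that diverged in at least 1 tissue comparison was not counted. Among the 4, 3R.145 had only 19 of 160 values above background, most rows of 2R.6 and 2R.19 were near-identical, and the indexes of 2R.8 were closely alike. The 0 of 4 therefore says little about clusters with many indexes. A cluster was called opposed when a probe set of 1 index rose and a probe set of another index fell. No tissue comparison gave an opposed cluster among the 12 by limma, at either the adjusted or the unadjusted p, each with the 2-fold minimum; over all 958 clusters 0.313% were opposed in hemocytes over 2-round carcasses, 0.731% in hemocytes over heads and 0% in heads over 2-round carcasses. Between the labellings 2 of 12 were opposed, 2R.71 and 3R.162, with 2.09% over all.

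Clusters 2R.6 and 2R.19 were bright, and their 18 UTR probe sets ending in s_at could hardly be told from one another. Index 1 of 2R.6 measured 5176, 8110.1, 7425 and 9325 in hemocytes, 5604, 10827, 6178 and 9023 in heads, 4879.8, 4363, 5998 and 5293 in 2-round carcasses and 1769.9, 2897, 4405 and 2649 in 1-round carcasses. Index 1 of 2R.19 measured 5334, 8240.4, 7863 and 9647 in hemocytes, 5532, 10979, 6312 and 8862 in heads, 5146, 4343, 6278 and 5579 in 2-round carcasses and 1904, 3028, 4432 and 2708 in 1-round carcasses. Both rows were high in hemocytes and heads, lower in 2-round carcasses with overlap, and lowest in 1-round carcasses. After each row was centred, all 18 stayed within 0.125 log2 units of their common median profile on every array, although they carry 2 cluster numbers. No mosquito probe set outside these 18 (0) stayed within 0.3 log2 units of that profile. Pairwise correlations across the 16 arrays ran from 0.990 to 0.999, which is a description of rows that share arrays and may share probes; whether they share probe sequence was not tested.

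The indexes of these 2 clusters shared their tissue differences, which stayed under the 2-fold minimum. Index differences of 2R.6 ran from 0.48 to 0.60 for hemocytes minus 2-round carcasses, from -0.06 to 0.03 for hemocytes minus heads and from 0.44 to 0.66 for heads minus 2-round carcasses. The 2R.19 indexes ran from 0.41 to 0.58, from -0.18 to 0.01 and from 0.52 to 0.59 in the same order. None of the 21 probe sets of both clusters (0) was called in a tissue comparison. The CDS probe set of 2R.6 index 0 ending in s_at differed by 0.80 in heads over 2-round carcasses, 1.75-fold and with no overlap (limma adjusted p = 0.0101). The x_at probe set of that index differed by 0.70 in hemocytes over 2-round carcasses, 1.62-fold and with no overlap (limma adjusted p = 0.00639).

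Index 0 of 2R.6 stood apart from the rest of its cluster in the comparison of labellings (limma diffSplice, adjusted p = 2.23e-06). Its CDS probe set ending in s_at measured 1202, 1468, 1229 and 1366 in hemocytes, 1231, 1813, 1399 and 1819 in heads, 716, 876, 1089.5 and 868 in 2-round carcasses and 2243, 2313, 4339 and 2633 in 1-round carcasses. All 1-round carcass arrays lay above all others. It fell by 1.64 (SE 0.20) after 2 rounds (limma adjusted p = 3.55e-05), and the x_at probe set of the same index fell by 1.39 (SE 0.18; limma adjusted p = 5.51e-05). The UTR probe set of that index differed by 0.85 in the other direction, a 1.80-fold difference under the 2-fold minimum, as did the other 9 UTR indexes of 2R.6, at 0.81 to 0.97. No other index of 2R.6 held a CDS probe set, so the cluster split by the marks CDS and UTR rather than by index. Without 1-round carcass replicate 3, whose values were the highest of its group in these rows, 17 of the 18 UTR probe sets of 2R.6 and 2R.19 passed the threshold and the calls between labellings came to 36 in place of 18.

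Cluster 2R.8 was the reverse case, a cluster with a very large tissue difference that all its indexes shared. Its indexes correlated pairwise at 0.980 to 0.999 across the 16 arrays. They may share probes, which was not tested, so they cannot be counted as separate transcripts in agreement. Index 1 measured 60.0, 86.7, 124 and 92.5 in hemocytes, 1575, 7231, 4253 and 5508 in heads, 4129.9, 4217, 5177 and 4736 in 2-round carcasses and 669, 1233, 2492 and 1058 in 1-round carcasses. Hemocyte arrays lay far below every other array, and head replicate 1 was the lowest of the heads. All 9 probe sets fell in hemocytes, with differences of -5.78 to -5.39 from 2-round carcasses and -5.46 to -5.0 from heads, and index 1 was lower by 43.7-fold (limma adjusted p = 3.6e-08) and 38.9-fold (limma adjusted p = 4.88e-08). The index ranges of 0.30 and 0.28 were small beside differences of that size, and neither passed the F test. Heads and 2-round carcasses differed by -0.46 to -0.07 per index, and 0 of the 9 probe sets were called.

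Between the carcass sets, which differ in both RNA input and rounds, the single s_at probe set of 2R.8 had the smallest difference of the 9. The 8 a_at probe sets of 2R.8 rose after 2 rounds by 1.73 to 1.94, and index 1 had a limma adjusted p of 0.00323. The s_at probe set of index 0 measured 11666, 11205, 12431 and 12544 in 2-round carcasses and 8083, 9486, 11306 and 9195 in 1-round carcasses. These groups overlapped by 1 array, and the difference of 0.34 (SE 0.24) was not called (limma adjusted p = 0.369). In hemocytes the same probe set fell with the others, at -5.78 from 2-round carcasses.

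Cluster 3R.145, with 10 CDS probe sets ending in at, was dark. Only 19 of its 160 values lay above background, and no probe set of it did so on more than 3 arrays. None was called in any comparison (0 of 10), its index ranges of 0.47, 1.02 and 0.70 in the tissue comparisons did not pass the F test, and its agreement cannot be read as agreement of expression.

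Cluster 2R.433 showed the most complex split. Its UTR probe set of index 0 measured 55.8, 82.5, 95.9 and 134 in hemocytes, 2918, 5026, 4459 and 5304 in heads, 1997, 2524, 4029 and 2817 in 2-round carcasses and 1235, 1753, 3738 and 1808 in 1-round carcasses. Its UTR probe set of index 2 measured 31.7, 6.49, 75.2 and 55.8 in hemocytes, 579, 1137, 790.4 and 876 in heads, 4546, 4477, 4199 and 5139 in 2-round carcasses and 2194, 3268, 4308 and 3984 in 1-round carcasses. Both rows were lowest in hemocytes with no overlap. Heads overlapped with carcasses for index 0 and lay below every carcass array for index 2.

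Index 2 of this cluster was the part that separated heads from carcasses. Its UTR probe set fell by 2.45 (SE 0.34) in heads against 2-round carcasses (limma adjusted p = 7e-05), and its CDS probe set fell by 1.65 (SE 0.21; limma adjusted p = 2.25e-05). Index 0 differed by 0.65 (SE 0.32), index 1 by 0.90 and index 4 by -0.33, and none of these was called. The range of 2.95 (limma F test, adjusted p = 8.36e-06) made 2R.433 the single diverging cluster among the 12 in that comparison. That call rested on s_at probe sets, since index 0 and index 2 have no others. With s_at and x_at probe sets left out 0 of the remaining clusters diverged in that comparison. This setting did not retest the split, because 2R.433 kept only index 1 and index 4. Clusters 2R.6 and 2R.19 kept no probe set in it.

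In hemocytes every index of 2R.433 was lower than in the other tissues, by different amounts. The amounts for index 1 and index 4 are limited by background, which index 4 exceeded on only 2 of 4 hemocyte arrays. Both ranges given next have index 1 as an end, so their widths are limited in the same way. Differences from 2-round carcasses were -5.66 for index 2, -4.73 for index 0, -3.77 for index 4 and -0.83 for index 1 (range 4.82, limma F test, adjusted p = 1.76e-11). Index 1 lay below background on all 4 hemocyte arrays and measured 15, 15.7, 33.5 and 15.5 in 2-round carcasses, so its own difference has only a bound, at least 1.46-fold lower there (not called) and at least 3.07-fold lower than in heads (called, but not with a pseudocount of 64). Head replicate 1 measured 4.60, within the hemocyte range, against 74.1 to 89.1 on the other heads, and without it the bound was at least 6.29-fold. Differences from heads were -5.38 for index 0, -3.61 for index 2, -3.44 for index 4 and -1.73 for index 1 (range 3.64, limma F test, adjusted p = 3.38e-07). The order of index 0 and index 2 thus turned between the comparisons, which share the hemocyte arrays. With a pseudocount of 1 the range against heads was 2.43 and the call was lost (limma F test, adjusted p = 0.0714).

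Cluster 3R.160 was the clearest case among bright probe sets, since all 4 of its a_at probe sets lay above background on all 16 arrays. Index 10, a UTR probe set, measured 883, 1138, 766 and 523 in hemocytes, 290.3, 108, 99.7 and 132 in heads, 191, 335, 262 and 293 in 2-round carcasses and 401, 404, 475 and 338 in 1-round carcasses. Index 1, a CDS probe set, measured 57.1, 81.8, 64.8 and 56.7 in hemocytes, 104, 78.3, 49.1 and 75.4 in heads, 79.2, 88.9, 97.3 and 128 in 2-round carcasses and 183, 230.0, 223 and 164 in 1-round carcasses. Hemocytes were highest with no overlap for index 10, and overlapped with heads and 2-round carcasses for index 1, which was highest in 1-round carcasses.

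Hemocyte over head differences in 3R.160 were 2.35 (SE 0.29) for index 10, 1.92 (SE 0.18) for index 0 and 1.57 (SE 0.15) for index 2, all called, and -0.17 (SE 0.19) for index 1, not called. Against 2-round carcasses they were 1.53 for index 10, 1.14 for index 0, 0.95 for index 2 and -0.49 for index 1. Only index 10 and index 0 were called there, and index 2 had a limma adjusted p of 0.000115 at 1.93-fold. Ranges of 2.52 and 2.02 passed the F test (adjusted p = 4.87e-09 and 1.21e-06). Index 1 differed from the rest of its cluster by -2.11 against heads (limma diffSplice, adjusted p = 9.05e-10), and heads minus 2-round carcasses gave a range of 0.50 that was not called (limma F test, adjusted p = 0.653). The cluster also diverged between labellings, where index 2 differed by 0.93 and index 1 by -0.92, neither called as a probe set.

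In cluster 2R.463 a single index was called higher in hemocytes. Its CDS probe set of index 0 measured 886, 1183, 1036 and 860.1 in hemocytes, 467, 387, 363 and 305 in heads, 486, 394, 385 and 386 in 2-round carcasses and 163, 166, 284 and 125 in 1-round carcasses. Every hemocyte array lay above all other arrays, and it rose by 1.35 (SE 0.20) over heads (limma adjusted p = 5.55e-05) and by 1.23 over 2-round carcasses (limma adjusted p = 0.000159), a call lost under quantile normalization. The UTR probe set of index 2 measured 449, 673, 517 and 672 in hemocytes, 733, 1164, 919 and 822 in heads, 547, 613, 858 and 604 in 2-round carcasses and 162, 180.4, 376 and 178 in 1-round carcasses. It was highest in heads with no overlap with hemocytes, at a hemocyte minus head difference of -0.64 (limma adjusted p = 0.0502), which was not called. The CDS probe set of index 2 overlapped between hemocytes and heads, at -0.45 (limma adjusted p = 0.114). The mean of index 2, which enters the range, differed by -0.54. Ranges of 1.89 against heads and 1.62 against 2-round carcasses passed the F test (adjusted p = 1.22e-06 and 0.000152). The first ran from index 0 to index 2, and the second from index 0 to index 3, a dim index. Index 3 was above background on 7 of 16 arrays and none of its differences was called.

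Cluster 3R.162 fell in hemocytes at every index. Index 3 measured 19.9, 11.8, 3.33 and 14 in hemocytes, 370.2, 1349, 1709.5 and 2587 in heads, 2879.5, 4216, 4983 and 4155 in 2-round carcasses and 8836, 9216, 10232 and 8115 in 1-round carcasses. The 4 groups did not overlap, and they stood in that order from low to high. It fell by 7.18 (SE 0.41) in hemocytes against 2-round carcasses (limma adjusted p = 1.5e-09), and the difference from heads was -5.49 (limma adjusted p = 3.31e-08). All 5 probe sets fell, with differences of -7.18 to -4.71 from 2-round carcasses and -5.49 to -3.62 from heads. Index differences ranged over 2.03 in the first comparison, where the F test passed (adjusted p = 0.00779), and over 1.87 in the second, where it did not (adjusted p = 0.0519). In hemocytes index 3, index 54 and the CDS probe set of index 0 lay above background on only 2 of 4 arrays. The sizes of their falls are limited by background, and both ranges end at these indexes, so the ranges cannot be read as divergence alone. Index 3 and index 54 also fell in heads against 2-round carcasses, at -1.69 and -1.71. Index 34 differed by a like amount, -1.68 (SE 0.58) with no overlap, and was not called (limma adjusted p = 0.0559), though it was with a pseudocount of 64, under median centring, with the filter on dim probe sets and with the replicate block.

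Between labellings 2 indexes of 3R.162 were called in opposite directions. Its CDS probe set of index 0 measured 755, 722, 822 and 776 in 2-round carcasses and 233, 197, 316 and 219.9 in 1-round carcasses. Its UTR probe set of index 54 measured 824, 1291, 1506 and 1349 in 2-round carcasses and 4039, 5038, 5603 and 3401 in 1-round carcasses. Neither pair of groups overlapped, and the probe set of index 0 rose by 1.63 (SE 0.39; limma adjusted p = 0.00577) while that of index 54 fell by 1.86 (SE 0.38; limma adjusted p = 0.00199). The UTR probe set of index 0 differed by 0.18 and that of index 34 by 0.18, neither called. Under quantile normalization the rise of index 0 was no longer called and the cluster was no longer opposed.

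Cluster 3R.347 had the widest range of the 12. Its probe set of index 3 measured 29.2, 48.4, 88.6 and 31.4 in hemocytes, 1127, 6157, 5725 and 5025 in heads, 1693, 1833, 2437 and 2079 in 2-round carcasses and 1127, 1218, 1833 and 1165 in 1-round carcasses. Index 1 measured 27.6, 46.5, 42.8 and 28.3 in hemocytes, 55.0, 59.1, 61.4 and 28.8 in heads, 71.9, 64.1, 44.4 and 51.4 in 2-round carcasses and 136, 188, 181 and 210.3 in 1-round carcasses. Hemocytes stood far below the rest for index 3 and overlapped with heads and 2-round carcasses for index 1. Index 3 fell by 5.94 (SE 0.43) against heads (limma adjusted p = 2.14e-08) and differed by -5.03 from 2-round carcasses (limma adjusted p = 1.46e-07). The s_at probe set of index 0 lay below background on all 4 hemocyte arrays and was at least 95.05-fold lower than in heads (at least 154-fold without head replicate 1) and at least 41.5-fold lower than in 2-round carcasses. Index 1 differed by -0.35 and -0.50, not called. Index 2 lay above background on 2 of 16 arrays, so the ranges of 6.33 and 5.34 to it (limma F test, adjusted p = 3.21e-18 and 1.82e-14) end at a probe set that was mostly not above background.

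Cluster 2R.71 diverged against heads. Index 0 measured 10.2, 0.962, 8.94 and 25.4 in hemocytes, 37.6, 231, 105 and 89.9 in heads, 48.4, 59.7, 58.2 and 72.9 in 2-round carcasses and 30.4, 27.1, 66.9 and 37.8 in 1-round carcasses. Index 2 measured 2091, 1687, 3750.4 and 4806 in hemocytes, 4489, 9122, 7898 and 8515 in heads, 4350.4, 4318, 6404 and 4645 in 2-round carcasses and 1669, 2131, 3951 and 2171 in 1-round carcasses. Index 0 had no overlap between hemocytes and heads, whereas for index 2 the lowest head array, replicate 1, lay below the highest hemocyte array. Differences from heads were -2.13 for index 0, -1.35 for index 2 and -1.41 for index 5, all called. Index 4 differed by 0.48 (limma adjusted p = 0.188), which gave a range of 2.61 (limma F test, adjusted p = 0.000175). Index 0 lay above background on only 1 of 4 hemocyte arrays. The size of its fall is therefore limited by background. This range and the one given next both end at index 0, so their widths are limited in the same way. In hemocytes over 2-round carcasses index 0 differed by -1.53 and index 5 by -1.31, both called, and the range of 1.53 missed the F test (limma F test, adjusted p = 0.0541). It passed with a pseudocount of 1, under median centring or quantile normalization, with the replicate block, with s_at and x_at probe sets left out and without any 1 of 4 arrays (hemocyte replicate 4, head replicate 1, head replicate 2 or 1-round carcass replicate 3); the call of index 0 was lost with a pseudocount of 64. Between labellings index 2 rose by 1.04 (limma adjusted p = 0.0326) and index 5, an s_at probe set, fell by 1.09 (limma adjusted p = 0.0295), both close to the 2-fold minimum. At least 1 of these 2 calls was lost with a pseudocount of 1, under median centring or quantile normalization, with s_at probe sets left out, and without any 1 of the 8 carcass arrays.

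Head replicate 1 was low in several of these clusters. Its log2 value minus the mean of the other 3 head arrays had a median of -2.30 over the 5 probe sets of 3R.347, -1.90 over those of 3R.162 and -1.80 over those of 2R.8, against 0.08 over 10614 mosquito probe sets above background. Without that array 9 members were called in heads over 2-round carcasses in place of 4. Those gained were the 2 probe sets of index 0 and that of index 3 in 3R.347 and index 1 of 2R.433, all higher in heads, and index 10 of 3R.160, lower. Cluster 3R.347 then also diverged, and 2R.433 became opposed. Without head replicate 4, the array with the conflicting label, 6 members were called there, all lower in heads. What sets this array apart was not tested.

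In the remaining clusters, 2L.449 and 2R.304, none of the 8 probe sets was called in any comparison (0 of 8). Index 1 of 2L.449 measured 440.2, 483, 473 and 572 in hemocytes, 349, 308, 313 and 204 in heads, 399, 315, 193 and 328 in 2-round carcasses and 765, 569.8, 476 and 600.1 in 1-round carcasses. Its hemocytes were above heads and 2-round carcasses with no overlap, at 1.66-fold and 1.60-fold. Index 0 of that cluster differed alike, by 0.73 and 0.72, while index 3 and index 4 had values near background. The range against heads of 1.10 passed (limma F test, adjusted p = 0.00621), and the call was lost without head replicate 4, without hemocyte replicate 4, with a pseudocount of 1 or 64 and under quantile normalization. The widest split of 2L.449 was between labellings, at a range of 1.93 (limma F test, adjusted p = 9.26e-05). Index 0 differed there by 0.98, 1.97-fold, and index 1 by -0.95, 1.94-fold, both with no overlap (limma adjusted p = 0.00124 and 0.00368). Without 1-round carcass replicate 3 both were called and the cluster was opposed. In 2R.304 the range of 1.19 between hemocytes and 2-round carcasses (limma F test, adjusted p = 0.00295) lay between index 5 at 0.94 and index 10 at -0.25, and was not called with a pseudocount of 64. Index 10 lay above background on only 2 of 4 hemocyte arrays, so this range ends at a dim index.

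Probe sets of a single index could also differ between labellings. Of the 7 indexes that held more than 1 probe set, 15 probe sets in all, 6 had their widest disagreement between the labellings. The same count over all such indexes of the array is not given here, so it cannot be called particular to these clusters. Over all 958 clusters with at least 2 indexes, divergence was also most frequent between labellings, at 25.8% against 8.87% to 21.4% in the tissue comparisons. Probe sets of 1 index differed there by 0.30 to 2.49, against 0.01 to 1.65 in the tissue comparisons. In index 2 of 2R.433 the CDS probe set measured 1770.3, 1204, 1104 and 1154 in 2-round carcasses and 5495, 3779, 4486 and 3164 in 1-round carcasses, with no overlap. It fell by 1.68 (SE 0.21; limma adjusted p = 3.42e-05), whereas the UTR probe set of the same index differed by 0.46 and was not called. Called probe sets between labellings were split 12 to 6 in favour of rises (66.7%), 11 to 9 (55%) under median centring and 9 to 11 (45%) under quantile normalization, so that this balance depends on the scaling. Over all mosquito probe sets the share of rises was 73.7%, 61.6% and 40.1% under the same 3 settings, and the median difference was 0.12, 0.00 and 0.01.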

How the data were processed

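The deposited table holds linear intensity, 1 value for each probe set on each array, and GCOS 1.4 was used according to the submitters' processing notes. How probes were summarised and scaled, and the genome build, is not given in the sources used here. No further normalization was applied, and log2(intensity + 16) was computed from the deposited values for all 16 arrays. The 12 clusters, the lists and the tests were chosen with earlier results of these data known.

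One linear model over the 4 groups, leaving 12 residual degrees of freedom, was applied to the 16884 mosquito probe sets (limma 3.58.1, R 4.3.3; lmFit and eBayes) with Benjamini-Hochberg adjustment per comparison. For each cluster the probe sets of an index were averaged and limma's diffSplice F test was adjusted over the 958 clusters with an arm and at least 2 indexes. The number of arrays limits the precision. A bound is the bright group's mean over the higher of background and measured value. Both tests were checked on simulated data.

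Besides the full description of all clusters, the rule for naming took the clusters with most indexes, those with the widest diverging ranges above background, the most and least alike bright clusters and those with most called indexes. Deviations of same-numbered arrays correlated at 0.40, 0.21, 0.48 and 0.25 for the carcass pairs, and at -0.13 to 0.18 for the other groups. Same-numbered carcass arrays may thus be paired, but differently numbered arrays were not compared, so this was not settled. The main model used no pairing, and the replicate block below is the alternative to it. Alternatives were pseudocounts of 1 and 64, median centring, quantile normalization, a filter on dim probe sets, the replicate number as a block, leaving out s_at and x_at probe sets, other index summaries and tests, and leaving out each array. Sequences were not used here.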

Additional observations from a re-analysis of the deposited data

Results flagged for a closer look

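A value far from the other 3 arrays of its group (a gap, as a share of the group's range, above Dixon's 95% critical value, which chance alone gives in about 1 of 20 groups) was found in 15 of 256 sets of 4 member values (5.86%), beside 6.07% over all mosquito probe sets. In heads, replicate 1 was the low array in 7 of them. It measured 3872 against 8031 to 9286 on the other heads for the s_at probe set of 2R.8 index 0, 415 against 960.1 to 1017 for 2R.71 index 5 and 4.60 against 74.1 to 89.1 for 2R.433 index 1. It measured 517 against 4097 to 5345 for 3R.162 index 34. In 3R.347 it measured 544 against 2698 to 3247 and 287 against 1686 to 2287 for the a_at and s_at probe sets of index 0, and 1127 against 5025 to 6157 for index 3. Head replicate 1 was flagged low in 1.74% of 10614 mosquito probe sets. Head replicate 4 was low for 3R.347 index 1, at 28.8 against 55.0 to 61.4.

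High arrays made up the rest. Hemocyte replicate 3 had 155 against 25 to 31.7 for 3R.162 index 34. In 2-round carcasses, replicate 1 had 38.1 against 8.49 to 11.7 for 2L.449 index 4 and 486 against 385 to 394 for 2R.463 index 0, and replicate 3 had 33.5 against 15 to 15.7 for 2R.433 index 1. In 1-round carcasses, replicate 3 had 44.5 against 20.4 to 22.4 for the CDS and 376 against 162 to 180.4 for the UTR probe set of 2R.463 index 2, and 1833 against 1127 to 1218 for 3R.347 index 3. That array was flagged high in 4.23% of 11194 mosquito probe sets. The causes were not tested.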

How the results depend on the processing

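No called member changed sign under any alternative. Calls of members in heads over 2-round carcasses numbered 4 as reported, 7 with the replicate block, 2 without s_at and x_at probe sets and 4 to 9 with 1 array left out; 2 of the 4 belong to the left-out endings. Between labellings the 18 calls became 16 to 36 with 1 array left out, and stayed at 18 with the replicate block. Diverging clusters in heads over 2-round carcasses numbered 1 as reported, 2 under quantile normalization, 2 with the replicate block, 2 by the test on centred index values, 0 without s_at and x_at probe sets and 1 to 2 with 1 array left out. Opposed clusters in hemocytes over heads came to 1 under quantile normalization (2R.463), and in heads over 2-round carcasses to 0 to 1 with 1 array left out. Between labellings the 2 opposed clusters became 1 with a pseudocount of 1, 1 under median centring, 0 under quantile normalization, 1 without s_at and x_at probe sets and 1 to 3 with 1 array left out. The range of 2R.433 in hemocytes over heads was 2.43 and not called with a pseudocount of 1. The cause was not tested beyond the left-out endings. The replicate block added 2R.71, 3R.162, 3R.347 and 2R.433 to the diverging clusters of the 4 comparisons in their order, giving 7, 7, 2 and 8. Median centring moved the median of all mosquito probe sets to 0.16, 0.15, 0.00 and 0.00 in the same order. The 10 dark probe sets of 3R.145 and index 2 of 3R.347 limit what can be said of them.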
